A study of Mus musculus with 48 samples.

Results

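Livers of LPS mice on day 11 were compared with livers of LPS mice on day 9, 3 libraries of each and so 6 of the 48 in the series, across all genes. These samples were chosen by their labels alone. All came from male wild-type mice and were collected at ZT21, where ZT is the number of hours after lights on. Lipopolysaccharide (LPS), the endotoxin of Gram-negative bacteria, had been given continuously on 7 consecutive days. If days are counted from the start of LPS, which the labels leave unstated, the livers were taken 4 days after the end of dosing on day 11 and 2 days after it on day 9. Neither group was untreated, and the negative control (NC) mice were sampled on day 7 only. NC livers and LPS livers of days 3, 5 and 7 at ZT21 are given here as levels beside the comparison, without a test of their own. Their libraries do enter the spread behind the main p-values, standard errors and intervals, which was estimated over all 18 ZT21 libraries. The labels give no dose, route, strain or age. The 3 libraries of a group are labelled as biological replicates, but it is not said whether they are 3 animals. All p-values therefore rest on the spread among libraries of the same group, whatever its source. Messenger RNA was sequenced from whole liver.

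LPS is sensed mainly by Toll-like receptor 4 on Kupffer cells, the resident macrophages of the liver, and cytokines released by these cells switch hepatocytes to the acute-phase programme. During that programme serum amyloid A and other acute-phase proteins are made in large amounts, while albumin, many P450 enzymes and other products of the differentiated hepatocyte are reduced. The liver also keeps a circadian clock, in which CLOCK and BMAL1 (encoded by Arntl) drive the Per and Cry repressors. The series title names Cry1 and essential fatty acids after recovery from sepsis, and the step between the 2 recovery days asks whether liver RNA was still changing once LPS had ended.

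Few genes separated the days. Of 16101 genes tested, 2 passed an adjusted p of 0.05 in edgeR's quasi-likelihood test, which is 0.0124%, and both rose on day 11. These were Zfp970, a gene of the KRAB-type zinc-finger family whose members generally act as transcriptional repressors, and its neighbour Gm14403. No gene fell by this test. At an unadjusted p under 0.05 there were 954 genes (5.93%), 454 of them higher on day 11 (2.82%) and 500 lower (3.11%). The 3 day 11 libraries did not overlap the 3 day 9 libraries for 2135 genes (13.3%), of which 1040 were higher on day 11 (6.46%) and 1095 lower (6.8%). DESeq2 called 17 of 14896 genes (0.114%), 8 higher and 9 lower. Of the 8, Mup-ps21 had reads in day 11 replicate 3 alone and mt-Tq in day 11 replicates 2 and 3 alone among the 6 libraries. A fit of the 6 libraries alone called 12 of 14688 (0.0817%).

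For most well-expressed genes the intervals lay within a 2-fold change either way. Among the 11276 genes with a mean log2 CPM of at least 1 (CPM, the count divided by the library total in M counts, scaled between libraries), the 95% interval of the log2 change lay within ±1 for 10298, or 91.3%. It lay within ±0.5 for 6511 of them, or 57.7%. The median absolute log2 difference between the mean of day 11 and the mean of day 9 was 0.112, and 92 genes differed by more than 2-fold. Between single libraries of the same day the median ranged from 0.0942 to 0.198, and 56 to 302 genes differed by more than 2-fold. Between single libraries of different days the median ranged from 0.149 to 0.202, with 173 to 372 genes over 2-fold. A mean of 3 libraries varies less than 1 library, so the first values and those of single libraries are unlike measures.

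Libraries of the same day did not all lie together. On the first principal component of the 6 libraries, which held 37.7% of the variance, day 11 replicate 2 lay at 21.6, with the other day 11 libraries at −8.2 and −4.1. Day 9 replicate 3 lay at 21.9, with the other day 9 libraries at −15.2 and −16.0. The second component (26.8%) put the day 11 libraries at 16.9, 3.1 and 17.6, and the day 9 libraries at −12.7, −13.2 and −11.8. Day 9 replicates 1 and 2 were the closest pair within a day. Their median chi-square was 1.43 per gene, against 2.37 to 4.06 in the other pairs within a day and 0.455 from counting noise alone. They were kept as 2 libraries, as labelled. A value above counting noise cannot show that they came from different animals. With their counts summed edgeR called 0 genes. Total counts ran from 29.1 to 31.8 M on day 11 and from 33.7 to 34.1 M on day 9.

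**Figure D1:**
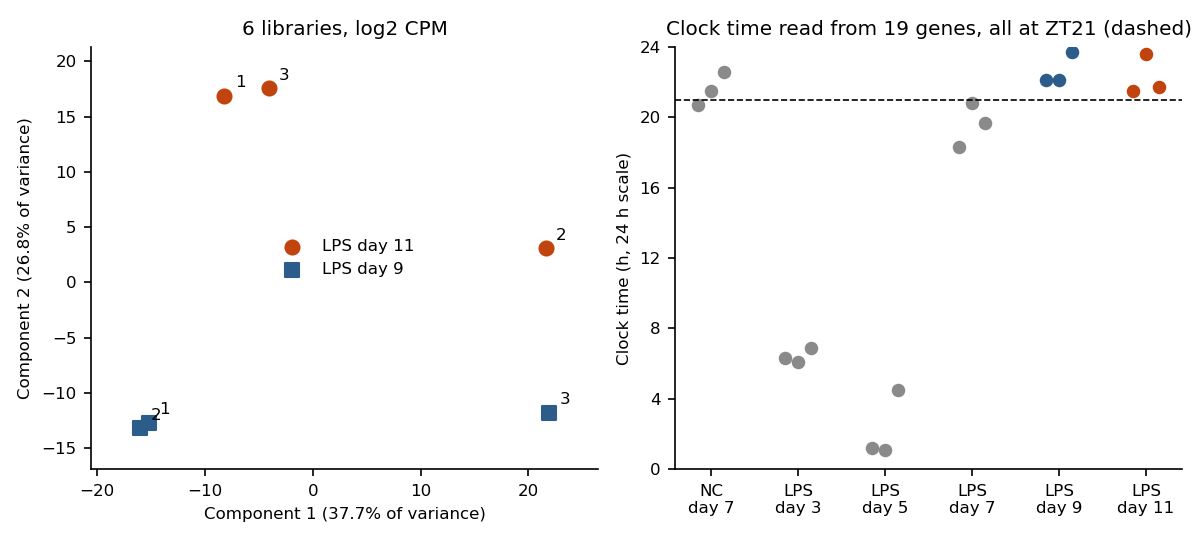
Left, the first and second principal component of log2 CPM for the 3 day 11 libraries (circles) and the 3 day 9 libraries (squares), numbered by replicate. Right, the clock time in hours read from 19 core clock genes for every library collected at ZT21 (dashed line), with 1 point per library. Day 11 replicate 2 and day 9 replicate 3 sit together on the right of component 1, and they also have the latest clock times, 23.6 and 23.7 h.

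Zfp970 and Gm14403 lie next to each other on chromosome 2 of GRCm38, on the plus strand, 20.1 kb apart with 0 annotated genes between them. Zfp970 spans chr2:177464733-177478129 and Gm14403 spans chr2:177498215-177509763. Their promoter windows are shown because both called genes carry almost the same one. Each window runs from 250 bases before to 50 bases after the annotated start (RefSeq, GRCm38.p6, plus strand, chr2:177464492-177464791 for Zfp970 and chr2:177497976-177498275 for Gm14403). Capitals mark the bases that differ between the aligned windows.
Zfp970: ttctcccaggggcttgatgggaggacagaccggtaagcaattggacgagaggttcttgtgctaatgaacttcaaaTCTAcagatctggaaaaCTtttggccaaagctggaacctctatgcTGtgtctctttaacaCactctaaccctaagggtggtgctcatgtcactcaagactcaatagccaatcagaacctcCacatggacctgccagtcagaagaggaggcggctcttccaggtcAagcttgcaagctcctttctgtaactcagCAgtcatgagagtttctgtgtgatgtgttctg
Gm14403: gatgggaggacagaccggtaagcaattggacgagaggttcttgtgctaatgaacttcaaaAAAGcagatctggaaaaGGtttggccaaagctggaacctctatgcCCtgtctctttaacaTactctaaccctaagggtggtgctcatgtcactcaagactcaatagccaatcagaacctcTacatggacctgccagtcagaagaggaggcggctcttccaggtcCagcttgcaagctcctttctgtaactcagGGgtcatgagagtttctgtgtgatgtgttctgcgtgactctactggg
With an offset of 15 bases the windows align without a gap over 285 bases, of which 272 are identical (95.4%) and 13 differ. The motif CCAAT, read on both strands, occurs 2 times in each window, and 37.4% of all 32851 mouse promoter windows of this length hold it. Zinc-finger genes of this stretch of chromosome 2 are close copies in general. Of 26 promoter windows of other tested genes between chr2:175086501 and chr2:178078476, 25 share at least 200 identical bases with the Zfp970 window, the closest being 293 in Zfp966 and Zfp967. The handling of reads that match several copies is not given in the sources used here. The share of each copy in these counts is uncertain.

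Zfp970 had 31.0, 32.5 and 38.3 CPM in the day 11 libraries, against 14.3, 13 and 18.5 CPM in the day 9 libraries. The groups did not overlap, and the log2 change was 1.15 ± 0.17 (SE, n = 3 each), with a 95% interval of 0.79 to 1.52 and an adjusted p of 0.0378 in edgeR. Gm14403, annotated as protein-coding by GENCODE, had 15.9, 14.9 and 19.5 CPM on day 11, against 7.5, 8.52 and 9.28 CPM on day 9. Its log2 change was 0.99 ± 0.14 (SE, n = 3 each; 95% interval 0.70 to 1.29, adjusted p 0.031 in edgeR). Both genes lay below their NC level through dosing. Mean Zfp970 was 40.5 CPM in NC livers and, over the LPS days, 4.31 on day 3, 13.7 on day 5, 30.4 on day 7, 15.3 on day 9 and 34.0 on day 11. For Gm14403 the means were 15.1 CPM in NC livers and 3.12, 6.25, 11.8, 8.43 and 16.8 CPM on days 3, 5, 7, 9 and 11 of LPS. In both, day 9 stood below the days on either side of it.

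Neither call was stable to the loss of a library. When each of the 6 libraries was left out in turn, Zfp970 stayed past the threshold in 1 of 6 fits and Gm14403 in 3 of 6. The log2 change was 1.05 to 1.32 for Zfp970, at an adjusted p of 0.00675 to 0.505 in edgeR, and 0.87 to 1.07 for Gm14403, at 0.00923 to 0.476. Without day 11 replicate 3, day 9 replicate 1 or day 9 replicate 2 edgeR called 0 genes, with 792, 711 and 694 at an unadjusted p under 0.05. Without day 9 replicate 3 there were 11, Zfp970 and Gm14403 among them. Of the other 44 tested genes in the same stretch of chromosome 2, 0 were called in edgeR. At an unadjusted p under 0.05 there were 3, against 5.93% of all genes. A log2 change above 0 was seen in 35 of the 44, and in 7838 of all 16101 genes. For 8 of the 44 the day 11 libraries were all higher and for 0 all lower, against 6.46% and 6.8% of all genes. The median log2 change of the 44 was 0.21, against −0.01 over all genes tested. None averaged over 8.15 CPM, and 22 averaged under 1 CPM. This stretch was picked after the values of its called genes were seen.

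Of the genes with the 6 smallest p-values each way, Cyp26b1 had the largest log2 change. It encodes a P450 enzyme that degrades retinoic acid (chr6:84571414-84593908, minus strand), and had 8.65, 13.2 and 5.15 CPM in the day 11 libraries, from 281, 361 and 157 reads, and 0.189, 0.122 and 0.6 CPM in the day 9 libraries, from 6, 4 and 19 reads. Every day 11 library was well above every day 9 library. The log2 change was 4.88 ± 0.78 (SE, n = 3 each; 95% interval 3.21 to 6.55), but the adjusted p was 0.11 in edgeR, and from 0.0709 to 0.95 with a library left out, so the gene did not pass. DESeq2 gave an adjusted p of 2.38e-07. In NC livers Cyp26b1 stood at 18.2, 9.87 and 16.2 CPM, and on day 3 of LPS at 0.26, 0.619 and 1.33 CPM, under every NC and day 11 library.

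Because of this gene a list of 20 retinoid-handling genes was drawn up after the data were seen, of which 19 were tested. In edgeR 0 were called, and 4 had an unadjusted p under 0.05, with DESeq2 calling Cyp26b1 alone. Lrat, which esterifies retinol for storage in stellate cells, had 13.5, 17 and 15.3 CPM on day 11 and 6.55, 5.42 and 12.8 CPM on day 9. Its log2 change was 0.88 (95% interval 0.26 to 1.50). Rara, a retinoic acid receptor, had 18.0, 18.6 and 15.9 CPM on day 11 and 27.9, 28.3 and 23.6 CPM on day 9, a log2 change of −0.61 (95% interval −0.90 to −0.31). Rarres1, a gene induced by retinoids, had 75.1, 73.2 and 69.2 CPM on day 11 against 44.8, 46.7 and 54.5 CPM on day 9. Of the 19, 3 were thus higher and 1 lower at an unadjusted p under 0.05, where 2.82% of all genes were higher and 3.11% lower. The median over the 19 was −0.03. The serum retinol carrier Rbp4 had a log2 change of −0.07 (95% interval −0.36 to 0.23).

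**Figure D2:**
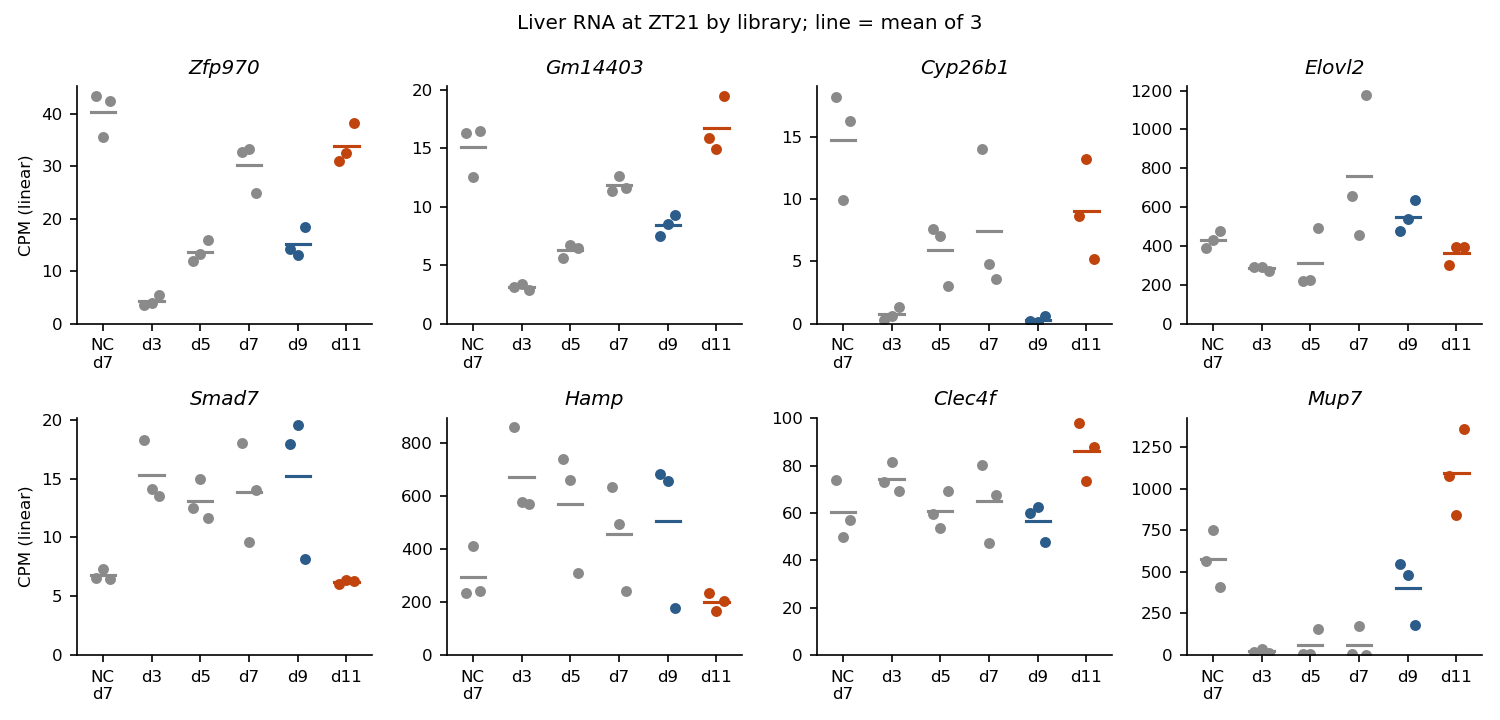
CPM on a linear axis for 8 genes in each ZT21 library, from NC day 7 through LPS days 3 to 11, with 1 point per library and a line at the mean of 3. Zfp970, Gm14403 and Cyp26b1 dip on day 9 (blue) and are higher in all day 11 libraries (red), while Smad7 and Hamp are high in 2 of the 3 day 9 libraries and low on day 11.

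Beyond these, the 6 genes with the smallest p in each direction were given by rule, and none of the following passed in edgeR. Spaca6, known for its role in sperm and egg fusion, had 3.39, 2.3 and 3.08 CPM on day 11 against 5.61, 7.03 and 5.27 CPM on day 9, with a log2 change of −1.03 ± 0.20 (SE, n = 3 each) and an adjusted p of 0.301 in edgeR. Arid5a, an RNA-binding protein that stabilises Il6 mRNA, had 5.33, 3.58 and 4.82 CPM on day 11 and 1.54, 1.89 and 2.56 CPM on day 9 (log2 change 1.20, adjusted p 0.491 in edgeR). E2f7, a repressor of the cell cycle, was low and uneven, with 0.554, 3.51 and 0.754 CPM on day 11 and 0.126, 0.244 and 0.221 CPM on day 9. Its day 11 libraries were all above those of day 9, but replicate 2 was several times the others. Acad12, an acyl-CoA dehydrogenase family member, had 7.85, 11.2 and 9.74 CPM on day 11 and 5.01, 4.72 and 6.53 CPM on day 9. Far1, which reduces fatty acyl-CoA to fatty alcohol, had 1.82, 1.68 and 1.94 CPM on day 11 against 3.69, 3.07 and 3.0 CPM on day 9. Siah2, a ubiquitin ligase, had 17.2, 16.5 and 19.1 CPM on day 11 and 25.6, 26.8 and 25.1 CPM on day 9. For these 3 the log2 changes were 0.82, −0.84 and −0.55, with non-overlapping groups and adjusted p of 0.53, 0.527 and 0.53 in edgeR. Vasn, a secreted inhibitor of TGF-beta, had 5.36, 3.66 and 6.99 CPM on day 11 and 14.3, 16.5 and 9.47 CPM on day 9 (log2 change −1.33, 95% interval −1.94 to −0.71). DESeq2 called Spaca6 (adjusted p 0.00449), Arid5a (0.0091), E2f7 (0.016), Acad12 (0.0416) and Vasn (0.0091), but not Far1 (0.0688) or Siah2 (0.078).

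The core clock showed no shift that could be resolved between the days. Of 19 core clock genes 0 were called in edgeR or DESeq2, 0 had an unadjusted p under 0.05, and none separated the 6 libraries by day. Cry1, a repressor of CLOCK and BMAL1 (chr10:85131700-85185064), had 29.6, 36.4 and 35.5 CPM on day 11 and 33.6, 33.6 and 43.5 CPM on day 9. Its log2 change was −0.13 with a 95% interval of −0.61 to 0.36, and that of Cry2 was 0.09 (95% interval −0.33 to 0.52). Intervals were wider for other members, such as Arntl at −0.18 (−1 to 0.64), Per2 at 0.02 (−1.07 to 1.12) and Nr1d1 at −0.13 (−1.13 to 0.88). These intervals do not show equal levels.

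For a clock time, each library's levels of these 19 genes were matched to daily cosine curves of the NC libraries, and the best-matching hour was taken. It was 21.5, 23.6 and 21.7 h in the day 11 libraries and 22.1, 22.1 and 23.7 h in the day 9 libraries. The means were 22.27 ± 1.16 h on day 11 and 22.63 ± 0.92 h on day 9 (SD, n = 3 each), a difference of −0.37 h with a two-sided exact permutation p of 0.5, where the smallest p that 3 against 3 allows is 0.1. Leaving out a library moved the difference from −1.03 h, without day 11 replicate 2, to 0.17 h, without day 9 replicate 3. NC libraries, each read from curves fitted without it, missed their labelled ZT by −2.2 to 2.5 h (SD 1.12 h, n = 18). On earlier LPS days the readings at ZT21 were 6.1 to 6.9 h on day 3, 1.1 to 4.5 h on day 5 and 18.3 to 20.8 h on day 7. The latest reading of each recovery day came from the library that stood apart on the first component. Npas2, a paralogue of Clock that peaks near lights on, had 0.277, 3.91 and 0.197 CPM on day 11 and 0.441, 0.335 and 5.97 CPM on day 9, and so marked the same pair of libraries. The part of clock time in the separation of those libraries was not tested.

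Genes that make polyunsaturated fatty acids also gave 0 calls in edgeR and DESeq2 among 16 tested. At an unadjusted p under 0.05, 1 was higher and 1 lower, against 2.82% and 3.11% of all genes. Elovl2, the elongase of C20 and C22 polyunsaturated acyl chains (chr13:41182381-41220405), had 301, 395 and 392 CPM on day 11 and 475, 540 and 634 CPM on day 9. The groups did not overlap, and the log2 change was −0.60 ± 0.32 (SE, n = 3 each; 95% interval −1.28 to 0.08). Fads2, the delta-6 desaturase, had 367, 412 and 439 CPM on day 11 and 448, 503 and 602 CPM on day 9 (log2 change −0.35, 95% interval −1.12 to 0.41). Fads1, the delta-5 desaturase, had 319, 332 and 381 CPM on day 11 against 379, 423 and 551 CPM on day 9 (−0.39, 95% interval −1.04 to 0.26). Elovl5, the elongase of C18 and C20 chains, had 174, 323 and 221 CPM on day 11 and 320, 375 and 608 CPM on day 9, a log2 change of −0.86 (95% interval −1.69 to −0.02, adjusted p 0.834 in edgeR). In all 4 of these genes the highest day 9 value came from replicate 3, the library that stood apart. Pla2g4a, the cytosolic phospholipase that frees arachidonic acid, was at 1.26, 1.02 and 1.05 CPM on day 11 and 0.41, 0.548 and 0.726 CPM on day 9. The median of the list was −0.03.

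**Figure D3:**
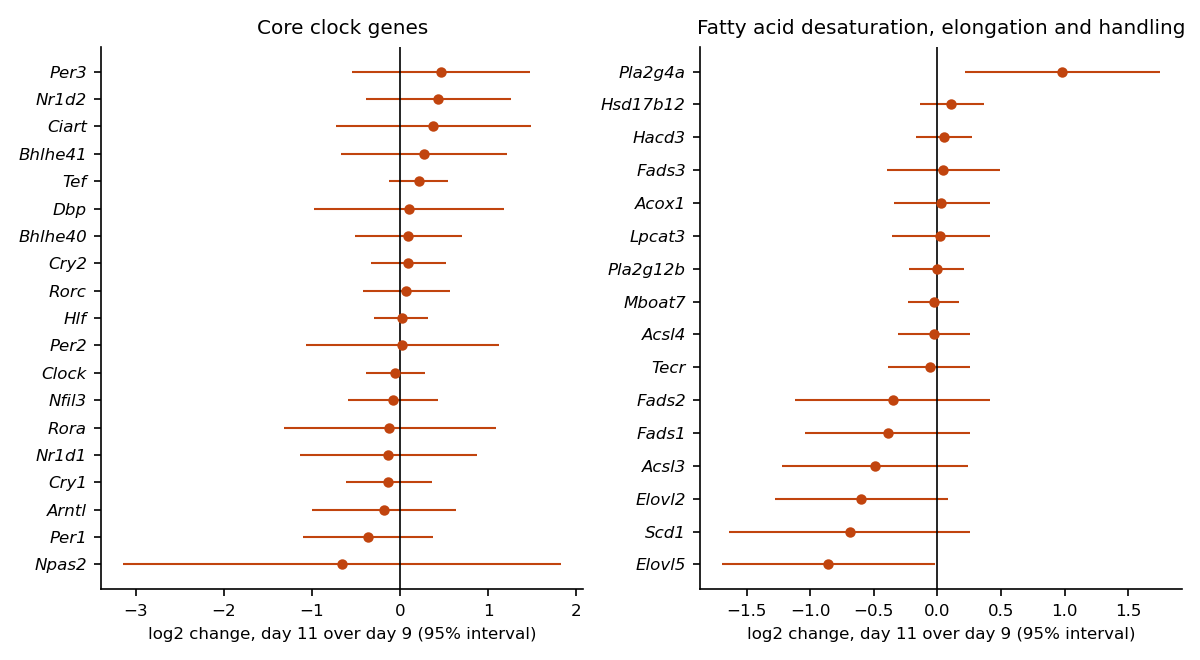
Log2 change of day 11 over day 9 with its 95% interval from edgeR for the 19 core clock genes (left) and the 16 genes of polyunsaturated fatty acid synthesis and handling (right). All clock intervals cross 0, with Cry1 at −0.13, and the fatty acid genes run from −0.86 for Elovl5 to 0.98 for Pla2g4a.

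Several genes that bone morphogenetic protein (BMP) signalling is known to induce had lower values on day 11, without a call in edgeR, while Id4 lay the other way. BMP6 from liver endothelium acts on hepatocytes through SMAD1 and SMAD5 to induce hepcidin, the iron hormone encoded by Hamp, and to induce the inhibitors Smad6 and Smad7. Smad7 had 6.01, 6.4 and 6.3 CPM on day 11 and 18.0, 19.5 and 8.17 CPM on day 9, with a log2 change of −1.29 ± 0.26 (SE, n = 3 each; adjusted p 0.491 in edgeR, 0.00649 in DESeq2). Id1, a BMP-induced inhibitor of helix-loop-helix factors, had 2.86, 2.96 and 2.98 CPM on day 11 against 15.2, 13.4 and 4.77 CPM on day 9 (log2 change −1.92, 95% interval −3.16 to −0.68). Atoh8, another BMP-responsive factor, had 7.64, 8.77 and 7.31 CPM on day 11 and 32.0, 29.4 and 9.28 CPM on day 9. The day 11 libraries were tightly grouped, and day 9 replicate 3 stood close to them in all 3 genes. Hamp had 232, 167 and 202 CPM on day 11 and 684, 656 and 176 CPM on day 9, so that this day 9 library fell inside the day 11 range. Id4, another Id gene, had 1.2, 1.68 and 0.886 CPM on day 11 and 0.914, 0.609 and 0.316 CPM on day 9, a log2 change of 1.03 (95% interval 0.16 to 1.89), with overlapping groups. The inhibitor Smad6 had a log2 change of −0.33 (−0.75 to 0.09).

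Of 17 BMP and SMAD genes, listed after the data were seen, 0 were called in edgeR and 1 in DESeq2. At an unadjusted p under 0.05 there were 7 lower and 1 higher, against 3.11% and 2.82% of all genes. For 7 all day 11 libraries were below all day 9 libraries, as for 6.8% of all genes. With day 9 replicate 3 left out, Smad7 passed at an adjusted p of 0.00356 in edgeR. It also passed with both libraries that stood apart left out, at 0.0195. Smad1, which carries the BMP signal, had 11, 12.5 and 13 CPM on day 11 and 13.1, 14.2 and 17.5 CPM on day 9, a log2 change of −0.30 (95% interval −0.54 to −0.05, adjusted p 0.724 in edgeR). Among the other upstream members, intervals crossed 0 for Bmp6 at −0.10 (95% interval −0.76 to 0.56), its co-receptor Hjv at −0.17 (−0.40 to 0.05), Smad4 at −0.17 (−0.45 to 0.11) and Smad5 at 0.14 (−0.05 to 0.34). Bmp2, another ligand from liver endothelium, was not in the list and lay the other way, with 8.29, 7.79 and 6.46 CPM on day 11 and 5.73, 4.84 and 3.57 CPM on day 9. Its log2 change was 0.67 (95% interval 0.24 to 1.11), with an adjusted p of 0.676 in edgeR. In NC livers Smad7 was at 6.54, 7.32 and 6.47 CPM, and in LPS livers of days 3, 5 and 7 it ran from 9.63 to 18.2 CPM. Hes1, a Notch target with 12.3, 10.4 and 11.1 CPM on day 11 and 30.9, 28.7 and 13.6 CPM on day 9, and Atxn1, a transcriptional corepressor with 13, 13.3 and 13.7 CPM on day 11 and 49.9, 52.6 and 17.2 CPM on day 9, had the same arrangement of libraries. DESeq2 called Hes1 and Atxn1, at an adjusted p of 0.0225 and 0.00449. Without day 9 replicate 3 edgeR also called both, each at an adjusted p of 0.00515. Bmp2, Hes1 and Atxn1 were named after their values were seen.

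Kupffer cell and macrophage markers were the list with the most members at an unadjusted p under 0.05. Of 22 tested, 0 were called in edgeR or DESeq2, and the median log2 change was 0.44 against −0.01 over all genes. At an unadjusted p under 0.05 there were 10, all higher on day 11, where 2.82% of all genes were higher. In 11 of the 22 every day 11 library exceeded every day 9 library, compared with 6.46% of all genes. Clec4f, the C-type lectin of mouse Kupffer cells, had 97.8, 73.4 and 87.7 CPM on day 11 and 60.1, 62.6 and 47.6 CPM on day 9, a log2 change of 0.60 (95% interval 0.22 to 0.99). Cd5l, a scavenger protein secreted by macrophages, had 69.5, 42.2 and 60.6 CPM on day 11 and 39.2, 38.2 and 30.7 CPM on day 9. C1qb, a chain of the first complement component made by macrophages, had 40.9, 27.2 and 36.7 CPM on day 11 against 24.1, 24.5 and 21.4 CPM on day 9. In each of these genes day 11 replicate 2 was the lowest library of day 11 and day 9 replicate 3 the lowest of day 9.

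Leaving out single libraries moved the number of Kupffer markers with an unadjusted p under 0.05 from 5, without day 11 replicate 1 or without day 9 replicate 3, to 13, without day 11 replicate 2. With both libraries that stood apart left out it was 11 higher and 1 lower. The 4 members below 0 were Ccr2 at −0.41, Ly6c2 at −0.04, Trem2 at −0.81 and Gpnmb at −1.51, all with intervals across 0 and at or below 1.48 CPM in the 6 libraries. Itgam, the CD11b integrin of myeloid cells, was the highest at 1.34 (95% interval 0.08 to 2.59), with 4.53, 0.695 and 1.12 CPM on day 11 and 1.01, 0.944 and 0.568 CPM on day 9, so that day 11 replicate 1 alone stood out. Endothelial markers lay the same way as the Kupffer markers, with 14 of 16 above 0. Of the 16, 2 were higher at an unadjusted p under 0.05, against 2.82% of all genes. In edgeR or DESeq2 0 were called, and the median was 0.27. That median was 0.07 without day 11 replicate 1, and 0.11 with 11 of 16 above 0 without day 9 replicate 3, and in both 0 had an unadjusted p under 0.05. Clec4g, a lectin of sinusoidal endothelium, had 38.8, 28.3 and 27.4 CPM on day 11 and 25.2, 27.0 and 14.7 CPM on day 9. In whole liver a larger number of such cells and more RNA per cell cannot be told apart. Hepatocyte markers had a median of 0.03 over 19 genes.

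**Figure D4:**
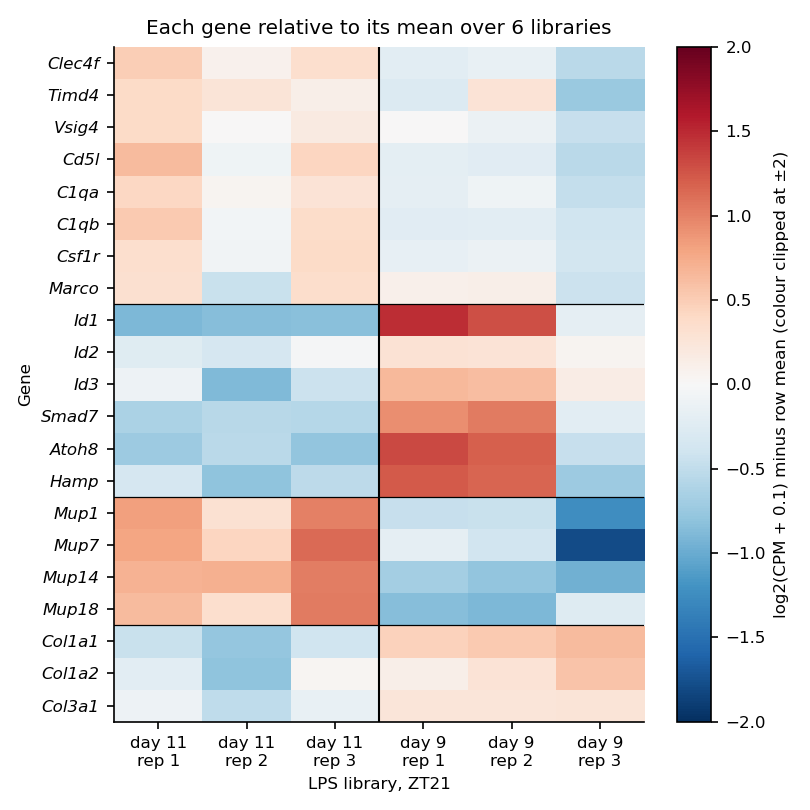
Log2(CPM + 0.1) of 21 genes in each of the 6 libraries, relative to the mean of the gene, with day 11 libraries left of the line and day 9 libraries right of it. From the top the blocks are Kupffer cell, BMP-responsive, major urinary protein and fibrillar collagen genes, picked after their values were seen. Day 9 replicates 1 and 2 are high in the BMP-responsive block, where day 9 replicate 3 resembles day 11.

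Inflammatory genes gave a mixed picture. Of 30 acute-phase genes 0 were called in edgeR or DESeq2, and the median log2 change was 0.09. At an unadjusted p under 0.05, 3 were higher and 1, Hamp, was lower, against 2.82% and 3.11% of all genes. In 7 every day 11 library was above every day 9 library, and in 3 below, against 6.46% and 6.8% of all genes. Saa1, a serum amyloid A gene, had 23.6, 34.7 and 21.7 CPM on day 11 and 13.2, 11.4 and 11.9 CPM on day 9, a log2 change of 1.13 (95% interval 0.38 to 1.88, adjusted p 0.676 in edgeR). These levels were under the 51.6 to 60.6 CPM of NC livers. Orm1, an orosomucoid, had 803, 781 and 775 CPM on day 11 and 577, 557 and 687 CPM on day 9. Saa and Orm genes have close copies, so reads may be shared among them. The haptoglobin gene Hp, at −0.17 (95% interval −0.67 to 0.34), and the fibrinogen chain gene Fga, at −0.09 (−0.43 to 0.24), had intervals around 0. Orm1, Hp and Fga were named after their values were seen.

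Alb, which encodes serum albumin and falls in the acute phase, had 57100, 69000 and 63600 CPM on day 11 and 90300, 90600 and 85700 CPM on day 9. The groups were well apart, with a log2 change of −0.49 ± 0.13 (SE, n = 3 each; adjusted p 0.592 in edgeR and 0.00146 in DESeq2). NC livers had 71400, 79300 and 78500 CPM, between the 2 recovery days. Ttr, the transport protein for thyroxine, had 4890, 5360 and 4420 CPM on day 11 and 6330, 6230 and 5730 CPM on day 9. Of 10 genes listed as falling in the acute phase, Alb and Ttr among them, 0 were called in edgeR and 1, Alb, in DESeq2. At an unadjusted p under 0.05, 2 were lower and 0 higher, against 3.11% and 2.82% of all genes. In 4 every day 11 library was below every day 9 library, and in 1 above, against 6.8% and 6.46% of all genes. That 1 was Serpina1e, with 17000, 15400 and 17700 CPM on day 11 and 12300, 11900 and 8930 CPM on day 9 (log2 change 0.60). Among 20 NF-kB targets and cytokines 0 were called in edgeR or DESeq2. At an unadjusted p under 0.05, 4 were lower and 1 higher, against 3.11% and 2.82% of all genes. Tnfaip2, a TNF-induced gene, had 28.1, 42.3 and 25.3 CPM on day 11 and 49.3, 50.4 and 45.7 CPM on day 9 (log2 change −0.61, 95% interval −0.93 to −0.28). Il1b lay the other way at low level, with 1.54, 1.83 and 1.34 CPM on day 11 and 1.01, 0.731 and 0.789 CPM on day 9. Of 32 complement and coagulation genes 0 were called in edgeR or DESeq2, and 9 were higher in all day 11 libraries, against 6.46% of all genes. At an unadjusted p under 0.05, 4 were higher and 1 lower, against 2.82% and 3.11% of all genes. These 4 were the 3 chains of C1q, which macrophages make, and Cfp, the properdin that stabilises the alternative pathway, with 25.5, 20.9 and 25.1 CPM on day 11 and 17.1, 18.7 and 13.5 CPM on day 9. C9, the hepatocyte-made end component of the lytic complex, had 641, 667 and 745 CPM on day 11 and 443, 435 and 492 CPM on day 9, a log2 change of 0.58 (95% interval −0.36 to 1.53). In 36 interferon-response genes 0 had an unadjusted p under 0.05, 0 were called in edgeR or DESeq2, and the median was 0.02.

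Major urinary protein genes, which hepatocytes of male mice express under pulsatile growth hormone, were all above 0. The 20 tested members had log2 changes of 0.13 to 1.63 with a median of 0.93, and in 13 every day 11 library exceeded every day 9 library, as in 6.46% of all genes. None was called in edgeR or DESeq2, and in edgeR 0 had an unadjusted p under 0.05. In the fit of the 6 libraries alone, where the other ZT21 groups do not enter the spread, 2 were called, Mup13 and Mup14. At an unadjusted p under 0.05 that fit had 11, and 1171 of all 14688 genes. Without LPS day 7 replicates 1 and 3 in the edgeR fit, 0 were called. At an unadjusted p under 0.05, 9 of 21 tested were then higher, and 1212 of all 17179 genes lay either way. Mup14 had 310, 313 and 389 CPM on day 11 and 119, 110 and 97.5 CPM on day 9, a log2 change of 1.63 (95% interval −0.29 to 3.56). Mup7 had 1080, 839 and 1360 CPM on day 11 and 548, 480 and 180 CPM on day 9. Mup20, the male pheromone darcin, had 4810, 2750 and 5600 CPM on day 11 and 4440, 4560 and 3030 CPM on day 9, with overlap. Mup genes are near-identical copies in a cluster, so 20 genes in the same direction are not 20 independent measurements. The list was completed after the data were seen.

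Other male-biased genes of the growth hormone axis had smaller differences. Across 33 genes of a list that also holds 5 Mup genes with non-overlapping libraries, the median was 0.24, 0 were called in edgeR or DESeq2, and 12 were higher in all day 11 libraries and 2 lower, against 6.46% and 6.8% of all genes. Cyp7b1, an oxysterol hydroxylase, had 252, 213 and 276 CPM on day 11 and 203, 171 and 72.3 CPM on day 9. Cyp4a12a, an arachidonic acid hydroxylase, had 549, 557 and 570 CPM on day 11 and 412, 361 and 406 CPM on day 9. Cyp3a41a, a female-biased P450, had 1.2, 1.79 and 1.61 CPM on day 11 and 7.31, 1.34 and 16.8 CPM on day 9, a wide spread within day 9.

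**Figure D5:**
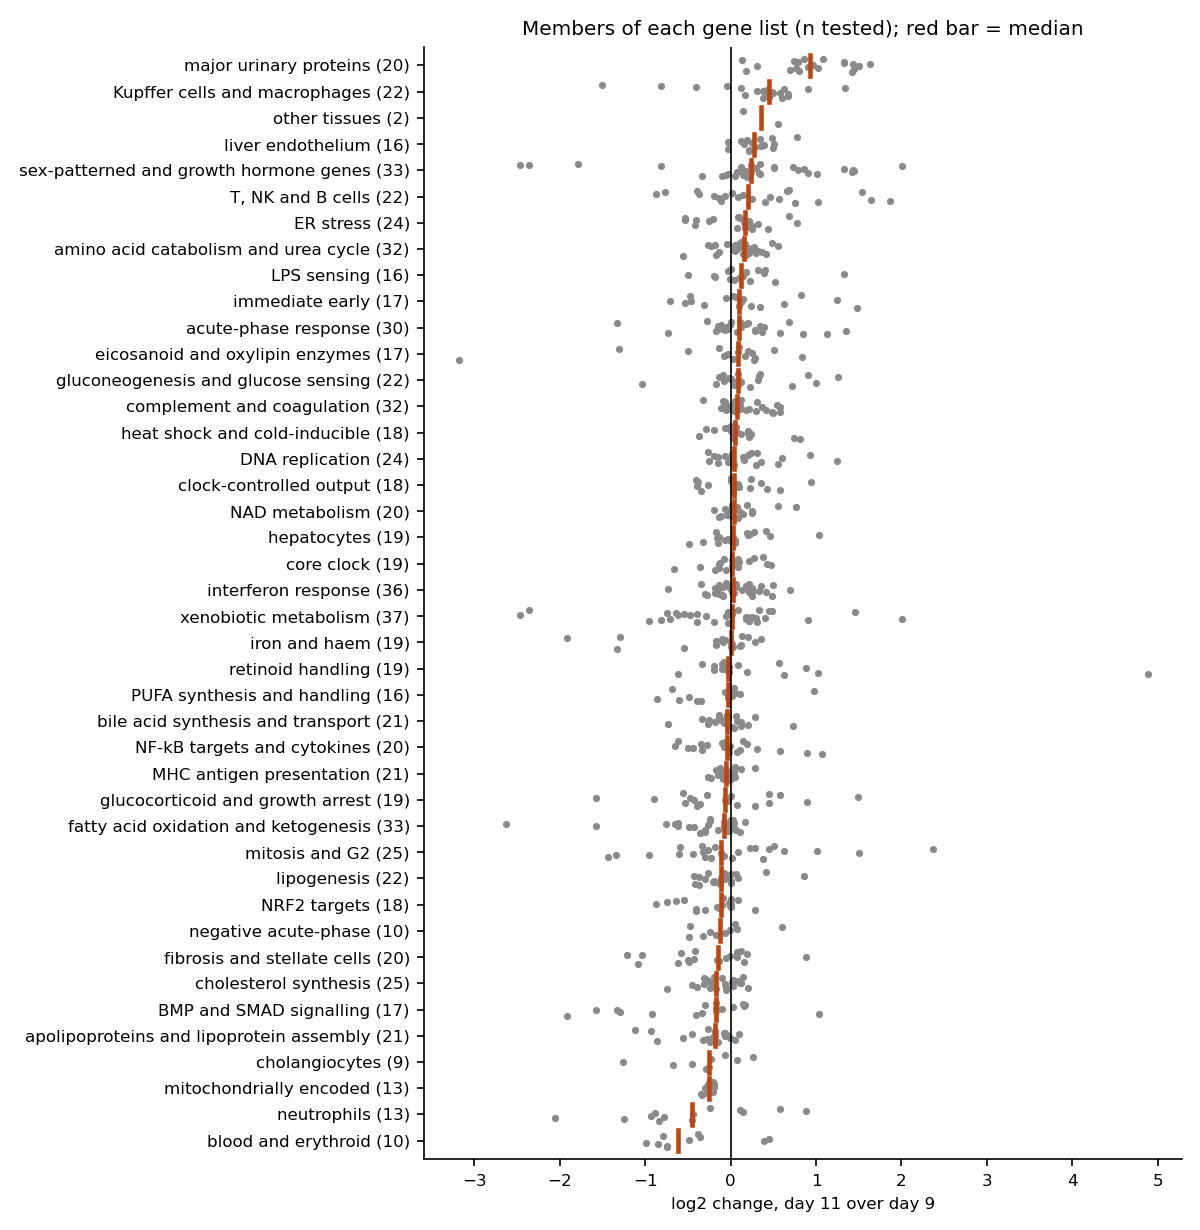
Log2 change of day 11 over day 9 for every tested member (grey points) of each gene list, with the number tested in brackets and the median as a red bar, ordered by median. Major urinary proteins have the highest median at 0.93 and Kupffer markers follow at 0.44, while blood and erythroid genes have the lowest at −0.62, or 0.01 without day 9 replicate 1.

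Of 21 apolipoprotein and lipoprotein-assembly genes 2 were above 0, the median was −0.18, and 0 were called in edgeR or DESeq2. At an unadjusted p under 0.05, 3 were lower, against 3.11% of all genes. Without day 11 replicate 3, or either of day 9 replicates 1 and 2, 0 were, and without day 9 replicate 3 there were 3. Angptl8, an inhibitor of lipoprotein lipase, had 154, 75.9 and 129 CPM on day 11 and 326, 286 and 168 CPM on day 9. Pltp, the phospholipid transfer protein, had 19.1, 28.2 and 21.1 CPM on day 11 and 40.9, 43.5 and 45.6 CPM on day 9. Neither passed in edgeR, with log2 changes of −1.12 and −0.93. Among 33 genes of fatty acid oxidation and ketogenesis, 0 were called in edgeR or DESeq2. At an unadjusted p under 0.05, 3 were lower and 0 higher, against 3.11% and 2.82% of all genes. The median of this list was −0.08. Without day 9 replicate 3 that median was 0.01, with 17 of 33 above 0 in place of 9. Fgf21, the fasting hormone of the liver, had 0.431, 0.329 and 0.754 CPM on day 11 and 3.28, 5.11 and 1.1 CPM on day 9. Ppara, the receptor that drives this programme, had 33.9, 35.4 and 38.4 CPM on day 11 and 48.8, 48.2 and 40.9 CPM on day 9 (log2 change −0.36, 95% interval −0.84 to 0.12).

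Genes under NRF2, the regulator of antioxidant defence, showed 6 of 18 with every day 11 library below every day 9 library (6.8% of all genes) and 3 lower at an unadjusted p under 0.05 (3.11% of all genes). In edgeR and DESeq2 0 were called. Gstm1, a glutathione transferase, had 1280, 1090 and 1180 CPM on day 11 and 2070, 1890 and 1980 CPM on day 9. Its log2 change was −0.74 ± 0.19 (SE, n = 3 each; adjusted p 0.592 in edgeR), and it was called in the fit of the 6 libraries alone at 0.0358. Gclc, the catalytic subunit that makes the glutathione precursor, had 198, 272 and 232 CPM on day 11 and 278, 283 and 371 CPM on day 9. All 13 mitochondrially encoded mRNAs had a log2 change below 0, in the narrow range −0.35 to −0.19, and 0 were called in edgeR or DESeq2. Of the 13, 2 had an unadjusted p under 0.05, where 3.11% of all genes were lower. With a library left out the number at an unadjusted p under 0.05 ran from 0, without day 11 replicate 3 or either of day 9 replicates 1 and 2, to 6, without day 11 replicate 2. Without both libraries that stood apart 12 of the 13 had an unadjusted p under 0.05, as had 1202 of all 16479 genes in that fit. The median was −0.48, against −0.25 with them. The 13 moved together, so they are not 13 independent measurements.

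Genes of glucose handling gave 0 calls in edgeR or DESeq2 among 22. At an unadjusted p under 0.05, 3 were higher and 1 lower, against 2.82% and 3.11% of all genes. Without day 11 replicate 1, or without day 11 replicate 3, 0 were higher and 1 was lower, and without day 9 replicate 3 there was 1 of each. Ppp1r3c, which targets a phosphatase to glycogen, had 29.4, 51.8 and 32.2 CPM on day 11 and 86.7, 77.9 and 68.8 CPM on day 9, a log2 change of −1.04 (95% interval −1.62 to −0.46). Thrsp, a regulator of lipogenesis, had 1140, 898 and 1150 CPM on day 11 and 338, 371 and 1060 CPM on day 9, and Hmgcs1, of cholesterol synthesis, had 85.8, 137 and 98.3 CPM on day 11 and 92.2, 87.9 and 357 CPM on day 9. In both the third day 9 library was the highest of its day. Among 22 lipogenic and 25 cholesterol synthesis genes 0 were called in edgeR or DESeq2 and 0 had an unadjusted p under 0.05.

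Type I and type III collagen mRNA was lower in every day 11 library than in every day 9 library, without a call in edgeR. Col1a1, which encodes the main chain of type I collagen, had 9.39, 7.46 and 9.74 CPM on day 11 and 17.8, 18.5 and 20.1 CPM on day 9, a log2 change of −1.08 ± 0.36 (SE, n = 3 each; adjusted p 0.707 in edgeR, and 0.0358 with the 6 libraries alone). Col3a1, the type III chain, had 41.4, 31.2 and 40.2 CPM on day 11 and 52.8, 52.5 and 53.4 CPM on day 9. Over the 20 genes of the fibrosis and stellate cell list 0 were called in edgeR or DESeq2, 6 were lower and 2 higher in all day 11 libraries, against 6.8% and 6.46% of all genes, and the median was −0.14. With both libraries that stood apart left out, 0 were lower at an unadjusted p under 0.05, where 2 were with them, and 10 of 20 were above 0. Lrat and Col4a1, the basement membrane collagen, were the 2 higher ones.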

How the data were processed

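Poly(A) RNA of whole liver was sequenced (48 libraries, 16 groups of 3) with a strand-marking dUTP kit and paired reads, per the labels' protocols. The authors deposited whole-number counts per gene symbol for 29331 genes, not scaled between libraries. The submitters' processing notes name STAR 2.5.2b, StringTie 2.2.1, DESeq2 1.38.1 and GRCm38. The counting step, strand setting and annotation: not given in the sources used here.

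Counts of the 18 ZT21 libraries (29.1 to 38.2 M each) were filtered by filterByExpr, scaled by TMM and tested with edgeR 4.0.16 (robust quasi-likelihood, 1 mean per group, 12 residual degrees of freedom, Benjamini-Hochberg at 0.05), with the contrast day 11 minus day 9. The other ZT21 groups share the estimate of the spread. Intervals are 95% from the fit. Clock time was fitted on a grid of 0.1 h and compared by exact permutation. Positions come from GENCODE vM21 (GRCm38), which placed 175 of 175 named genes, and promoters from RefSeq (aligned with Biopython 1.88). Scripts were tested on simulated data. Figures were drawn with matplotlib 3.10.9.

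The members and the 39 gene lists (797 genes, 764 tested) were chosen with earlier results of these data known. Named genes were those past the threshold, the 6 smallest p-values each way and over all genes, the core clock, 6 genes the title concerns (Cry1, Cry2, Fads1, Fads2, Elovl2 and Elovl5), and up to 4 members of each list, called ones first and then the largest changes. The retinoid, BMP and Mup lists, the stretch of chromosome 2, the heat map's genes and Zfp966, Zfp967, Hes1, Atxn1, Clec4f, Cd5l, Ccr2, Ly6c2, Bmp2, Orm1, Hp, Fga, Mup-ps21, mt-Tq, Ppara, Gclc, Col3a1, Col4a1 and Cdc14b were chosen after their values were seen. Alternatives were DESeq2 1.42.0, RLE scaling, no filter, other sets of libraries, a replicate block, a minimum log2 change of 1, and each library or clock gene left out.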

Additional observations from a re-analysis of the deposited data

How the results depend on the processing

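The count of 2 called genes was 17 with DESeq2, 12 with the 6 libraries alone, 0 with all 48 libraries, 0 with day 9 replicates 1 and 2 summed and 0 against a minimum log2 change of 1 (adjusted p of edgeR throughout, save DESeq2). At an unadjusted p under 0.05 the last 3 of these gave 888, 643 and 73 genes. With single libraries left out it ran from 0 to 11, and with both libraries that stood apart left out, a choice made after seeing the data, it was 11. It was 2 with RLE scaling, without a filter and without LPS day 7 replicates 1 and 3. Fewer libraries or another spread enter several of these fits, and the cause of each difference was not tested. Over 175 named genes and 2782 values under alternatives, 14 were past the threshold only under an alternative, 15 values of the called genes missed it, and no called gene changed sign. The clock time difference ran from −0.50 to −0.33 h over the changes of clock genes and scaling, and from −1.03 to 0.17 h with a library left out.

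Same-numbered libraries of the 2 days deviated from their day means with correlations of 0.29, −0.26 and −0.11. Not every library correlated best with its own number. With 3 libraries per day these values cannot show whether the replicate numbers pair them. With the replicate number as a block 2 genes were called, Zfp970 and Gm14403, each at an adjusted p of 0.036 in edgeR.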

Other observations

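Several genes outside the groups above differed widely between single libraries of the same day. Hspa1a and Hspa1b, inducible heat shock proteins, had 41.4, 3.69 and 35.2 CPM and 119, 9.76 and 109 CPM in the day 11 libraries, against 16.3, 17.5 and 12.1 CPM and 50.1, 53.7 and 39.0 CPM in the day 9 libraries. Day 11 replicate 2 was thus the lowest of all 6 libraries in both. Myc, a growth regulator, had 20.7, 31.3 and 20.7 CPM on day 11 and 3.21, 2.44 and 25.1 CPM on day 9. Gadd45g, a growth arrest gene, had 46.7, 75.5 and 41.1 CPM on day 11 and 6.36, 5.51 and 46.1 CPM on day 9. In both, the third day 9 library was at day 11 levels. Cdc14b, a phosphatase, had 18.7, 25.4 and 18.5 CPM on day 11 and 4.25, 4.9 and 26.8 CPM on day 9, and it was called in edgeR, at an adjusted p of 0.000492, when day 9 replicate 3 was left out.

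Haemoglobin mRNA marked a different library. Hbb-bs had 97.3, 87.0 and 89.2 CPM on day 11 and 308, 79.6 and 107 CPM on day 9, so day 9 replicate 1 was high and the other day 9 libraries were near those of day 11. The blood and erythroid list had a median of −0.62 over 10 tested, which was 0.01 with 5 of 10 above 0 without that library. Neutrophil genes, at low level, had a median of −0.45 over 13 tested. It was 0.02 without day 9 replicate 3 and −1.15 without day 11 replicate 3, over 14 tested in each, so it rests on single libraries. Mpo, the granule peroxidase, had 0.185, 0.146 and 0.328 CPM on day 11 and 1.01, 0.426 and 1.36 CPM on day 9. Cd38, an NAD-consuming ectoenzyme, had 11.2, 8.81 and 8.82 CPM on day 11 and 6.43, 5.88 and 4.58 CPM on day 9 (log2 change 0.77, 95% interval 0.33 to 1.21). Dusp1, a phosphatase induced by glucocorticoids, had 79.8, 94.3 and 87.0 CPM on day 11 and 40.5, 43.3 and 57.5 CPM on day 9 (log2 change 0.89 ± 0.23, SE, n = 3 each). None of these passed in the test across all genes.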
